A study of Mus musculus with 63 samples.

Results

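The 9 genes described here encode the actin filament of the heart muscle sarcomere, the proteins that switch it on, and the myosin-binding proteins that brace the thick filament against it: Acta1, Actc1, Tnnt2, Tnni3, Tnnc1, Tpm1, Tpm2, Mybpc3 and Mybpc2. They were taken by gene symbol from the deposited gene-level count table, in which all 9 were found among 19220 genes. They took between 1.70 ± 0.216% (SD, n = 7, Cast) and 2.34 ± 0.191% (SD, n = 8, NOD) of all counts, as a mean over the libraries of a strain. The table covers heart RNA from mice of 8 inbred strains, the founders of the Diversity Outbred population, which carry the labels 129, AJ, B6, NOD and NZO and, for the wild-derived ones, Cast, PWK and WSB. Cast had 7 libraries and each of the other 7 strains had 8, which makes 63. All groups shared a high-fat, high-sugar diet with 45% of it as fat, so no strain was measured on another diet here. The labels give no sex, age or mutation, and GRCm38, the reference genome, was made from B6. Only the identifiers in the titles mark the replicates as separate samples, so a p-value measures the spread between these libraries. A library is called by its strain and number, so WSB_1 is replicate 1 of WSB.

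The thin filament is a double strand of actin with tropomyosin lying along its groove and a troponin complex at regular steps. Calcium binds troponin C, troponin I lets go of actin, troponin T carries the change to tropomyosin, and tropomyosin moves off the sites that myosin needs. Myosin-binding protein C sits on the thick filament, reaches towards actin and slows or primes the myosin heads. The adult mouse ventricle uses mainly the cardiac form of each protein, whereas skeletal alpha-actin, beta-tropomyosin and the fast skeletal binding protein C are among the forms made in skeletal muscle. Skeletal alpha-actin is also a gene of the fetal heart that is known to return under load.

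Sequences just upstream of the start site are shown for 3 of the 9 genes, because these hold the motifs that are rarest among mouse promoters. They are RefSeq sequences on GRCm38.p6, printed 5′ to 3′ on the gene's strand, and all 9 genes had an entry. Capitals mark motif matches. The Actc1 sequence ends short of the start, where GENCODE has exon bases. In Acta1 these are a CArG box, the element bound by serum response factor, then the MCAT element CATTCC, bound by TEAD factors, and the TATA box, spelled TATAAA. In Actc1 they mark a CArG box and in Mybpc3 a MEF2 element. The Acta1 window is chr8:123894776-123895025 on the minus strand, the Actc1 window is chr2:114052888-114053125 on the minus strand, and the Mybpc3 window is chr2:91117894-91118143 on the plus strand.
Acta1: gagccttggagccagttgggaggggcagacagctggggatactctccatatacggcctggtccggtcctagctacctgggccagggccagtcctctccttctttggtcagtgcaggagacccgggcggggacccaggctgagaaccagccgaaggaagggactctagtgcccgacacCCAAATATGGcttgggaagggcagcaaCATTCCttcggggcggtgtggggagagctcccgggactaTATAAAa
Actc1: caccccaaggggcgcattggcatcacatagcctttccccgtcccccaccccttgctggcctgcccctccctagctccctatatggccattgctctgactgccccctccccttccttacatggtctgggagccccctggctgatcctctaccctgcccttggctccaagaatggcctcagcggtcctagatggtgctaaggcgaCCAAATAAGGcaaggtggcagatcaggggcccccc
Mybpc3: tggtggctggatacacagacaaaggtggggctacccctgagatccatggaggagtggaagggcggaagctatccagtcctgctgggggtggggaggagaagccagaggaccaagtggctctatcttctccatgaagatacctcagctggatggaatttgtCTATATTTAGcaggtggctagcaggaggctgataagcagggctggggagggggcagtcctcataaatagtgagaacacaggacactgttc
The CArG box lay 73 to 64 bases upstream of the RefSeq start in Acta1 and 47 to 38 bases upstream in Actc1, and 1.4% of 27025 RefSeq promoters held one within 250 bases on either strand. GENCODE begins these genes elsewhere: Acta1 farther downstream, at 123894751, and Actc1 upstream of the whole window, at 114053548. The distances hold for the RefSeq starts only. The MEF2 element of Mybpc3 lay 90 to 81 bases upstream, and 0.518% of promoters held one. CATTCC was present upstream of the RefSeq start of Acta1, Tnnt2, Tnnc1, Tpm1 and Mybpc2, against 12.6% of all promoters. The Tpm1 match, 56 to 51 bases before that start, lay inside the gene as GENCODE draws it, which begins at 67049406. The GATA element, spelled AGATAA, was present upstream of Tnnt2, against 10.3%. TATAAA was found in 13% of promoters and, among the 9 genes, in Acta1. The motifs searched do not overlap each other in these windows. A match is a run of letters, and binding was not measured.

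The libraries held 21.79 M to 42.95 M counts, with a median of 30.4 M. They were heart by their markers: the summed level of 10 cardiomyocyte genes, none of them among the 9, lay between 62220 and 89720 CPM (counts scaled for library size) in every library but WSB_1, where it was 35920 CPM. WSB_1, Cast_1, NZO_8, Cast_5 and Cast_6 stood apart from their strains, with a median distance per gene of 0.5695, 0.2235, 0.1988, 0.1968 and 0.1952 log2 units from the strain's median, against 0.103 for the median library. NZO_8 had the highest macrophage sum, at 577.2 CPM against a median of 196.7 CPM in NZO, and Cast_6 had the lowest fibroblast sum, at 472.1 CPM against a median of 782 CPM in Cast. Where a strain's call for 1 of the 9 genes changed without these libraries, both values are given beside the gene. In whole heart RNA, fewer cells of a type and less RNA per cell cannot be told apart.

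In edgeR's quasi-likelihood test over all strains, 8 of the 9 genes passed (adjusted p from 2.87e-24 to 5.62e-09), while 90.3% of the 16425 genes tested did so. The genes' share is near that background. The distance between the highest and lowest strain mean was 3.73 log2 units for Acta1, 2.08 for Mybpc2, 1.24 for Tpm2, 1.23 for Mybpc3, 1.20 for Actc1, 0.67 for Tpm1, 0.59 for Tnnc1, 0.53 for Tnnt2 and 0.21 for Tnni3. Thus 5 of 9 spanned at least 1 log2 unit and passed the test, against 38.4% of all genes tested, and the median span was 1.20 log2 units against 0.78 over all genes tested. The strain accounted for 87.2% of the variance of log2 CPM in Acta1, 87.0% in Mybpc2 and 82.3% in Mybpc3, but 8.5% in Tnni3. The widest spans lay in Acta1, Mybpc2 and Tpm2, with Mybpc3 close to Tpm2, and the narrowest in the cardiac troponins. In counts per kilobase of exon, Actc1 ranked 20 among 16371 genes, Tnnt2 25, Tnni3 28, Tnnc1 32, Mybpc3 48, Acta1 92, Tpm1 96, Tpm2 3204 and Mybpc2 4894. The rank of Tpm1 is understated, since its exons are summed over 16 coding transcripts.

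**Figure D1:**
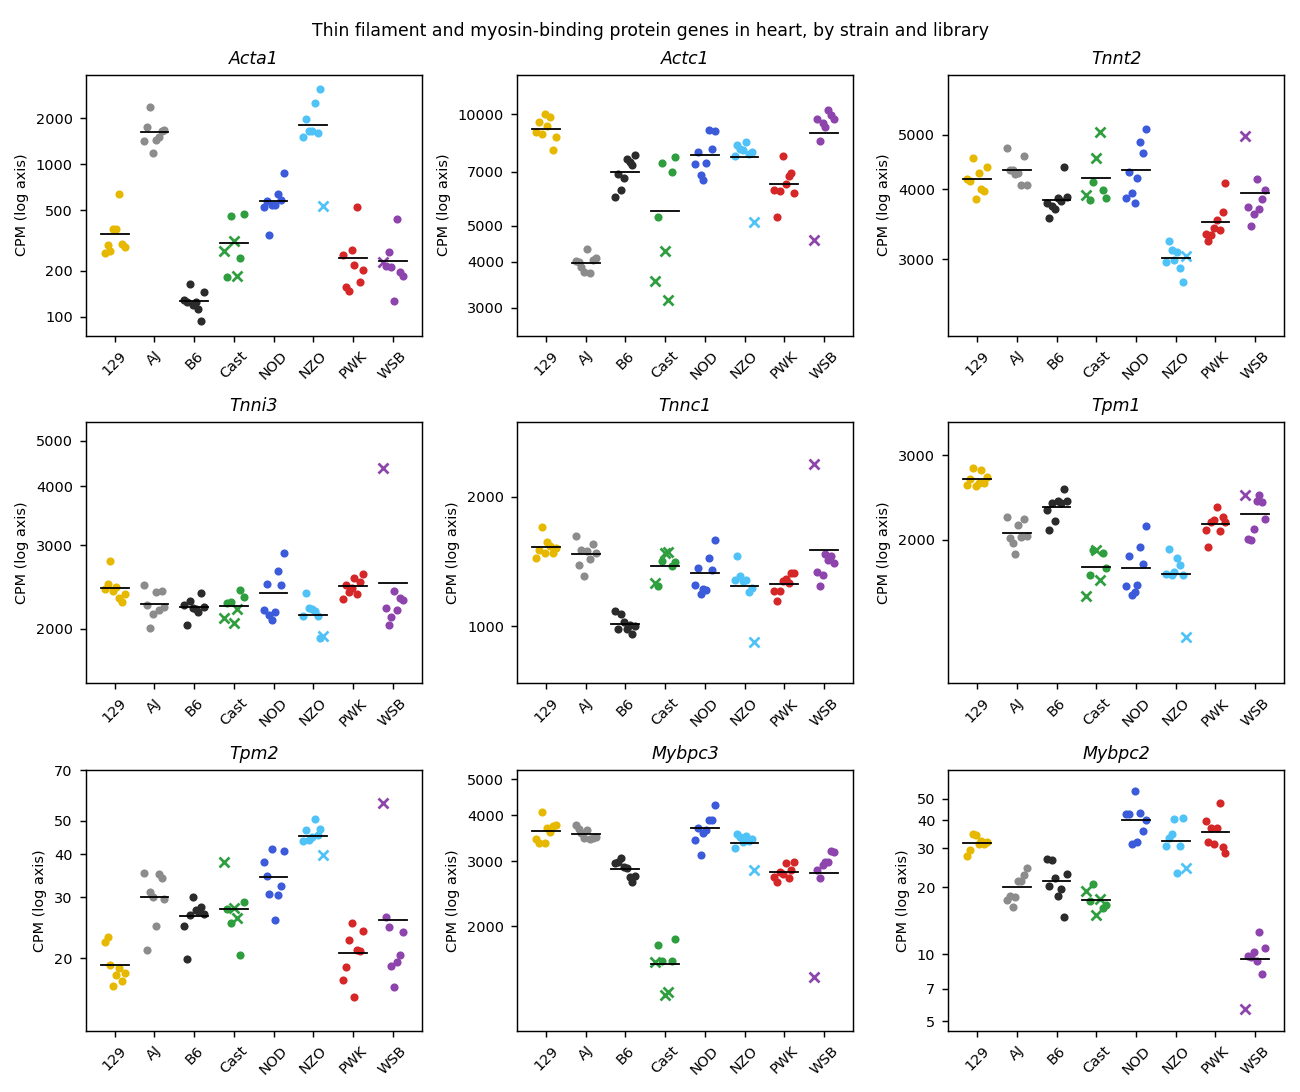
Level of each of the 9 genes in CPM (log axis, a separate scale per gene) in 63 heart libraries, by strain. Points are libraries, crosses are WSB_1, NZO_8, Cast_1, Cast_5 and Cast_6, and bars are strain means; Acta1 is high in AJ and NZO, Mybpc3 is low in Cast and Mybpc2 is low in WSB.

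Acta1 encodes skeletal alpha-actin, a minor actin of the adult heart (ENSMUSG00000031972, chromosome 8, 123891769 to 123894751, minus strand, GRCm38). In NZO its level was 535.8 CPM in the lowest library, NZO_8, with a median of 1645 and a highest value of 3108, and in AJ it ran from 1193 to 2362 CPM with a median of 1579. In B6 it ran from 93.54 to 162.9 CPM with a median of 124.5. All 8 AJ libraries and the NZO libraries other than NZO_8 lay above every library of the other 6 strains, and NZO_8 lay inside the range of NOD. Every B6 library lay below all NZO, AJ, NOD, 129 and Cast libraries and overlapped only the lowest ones of PWK and WSB.

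Strain means of Acta1 were 1830 ± 761 CPM (SD, n = 8) in NZO and 1630 ± 346 CPM (SD, n = 8) in AJ, and 126 ± 20.9 CPM (SD, n = 8) in B6. Set against the average of the remaining 7 strains, the log2 fold change was 2.36 ± 0.15 (SE) in NZO, 2.17 ± 0.15 in AJ and -2.04 ± 0.22 in B6, with edgeR adjusted p of 2.53e-20, 1.98e-18 and 9.95e-12. NOD followed at 577 ± 146 CPM (SD, n = 8), 0.46 ± 0.17 (SE) log2 units above that average (edgeR adjusted p = 0.0341). The remaining means were 350 CPM in 129, 303 CPM in Cast, 243 CPM in PWK and 234 CPM in WSB. In this order NZO and AJ did not differ in the pairwise edgeR test (adjusted p = 0.661), nor did 129 and Cast (0.504), Cast and PWK (0.278), or PWK and WSB (0.869). AJ lay above NOD, NOD above 129 and WSB above B6 (adjusted p = 1.88e-06, 0.0192 and 0.00267). Acta1 passed the test in 7 of 8 strains, 129 being the exception (log2 fold change -0.36 ± 0.19, edgeR adjusted p = 0.139), which passed when libraries were scaled by the cardiomyocyte list in place of TMM (-0.51, 0.0281). The call in Cast ended without Cast_1, Cast_5 and Cast_6 (log2 fold change -0.44, edgeR adjusted p = 0.175).

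Markers of skeletal muscle were examined beside Acta1, since that tissue makes it in bulk. Of 12 listed markers 11 were in the table. Myh1 and Myh2, fast skeletal myosin heavy chains, had 4 and 3 counts over all 8 NZO libraries, and 5 and 6 of those libraries were at 0. The summed level of the 10 markers other than Casq1 ran from 3.31 to 6.14 CPM in NZO, from 2.6 to 6.5 CPM in AJ and from 2.38 to 4.91 CPM in B6. Of the 11 markers 3 had higher means in both NZO and AJ than in B6: Actn3, Atp2a1 and Casq1. Casq1, a calsequestrin, was at 21.7 CPM in NZO, 15.6 CPM in AJ and 5.97 CPM in B6, but at 19.6 CPM in 129, where Acta1 was at 350 CPM. Atp2a1, the calcium pump of fast skeletal muscle, was at 3.09 CPM in NZO, 3.35 CPM in AJ, 4.18 CPM in NOD and 3.96 CPM in Cast, against 1.59 CPM in B6, 0.922 CPM in 129, 0.718 CPM in WSB and 0.694 CPM in PWK. None of the 11 had means in NZO and AJ that both exceeded those of every other strain, as Acta1 did, and the part of these cells in the Acta1 levels was not tested. Cast_1 stood out, as the sum of the 10 markers was 103 CPM there against a median of 4.4 CPM in Cast, and its Acta1 level was 268 CPM, the strain's median.

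Actc1 encodes cardiac alpha-actin, the main actin of the adult heart sarcomere (ENSMUSG00000068614, chromosome 2, 114047282 to 114053548, minus strand). Its lowest level was in AJ, from 3719 to 4337 CPM with a median of 4005, and its highest were in 129, from 8010 to 10010 CPM with a median of 9121, and WSB, from 4568 (WSB_1) to 10240 CPM with a median of 9590. All AJ libraries lay below every library of 129, B6, NOD, NZO, PWK and WSB, and overlap was with Cast alone, where Cast_6 was at 3151, Cast_1 at 3541 and Cast_5 at 4274 CPM and the other 4 libraries at 5294 to 7677 CPM. The log2 fold change against the remaining strains was -0.90 ± 0.10 (SE) in AJ, 0.48 ± 0.09 in 129 and 0.44 ± 0.09 in WSB (edgeR adjusted p = 3.13e-11, 1.48e-05 and 4.67e-05). Cast was lower as well (-0.37 ± 0.10, edgeR adjusted p = 0.00151), but without Cast_1, Cast_5 and Cast_6 the difference was -0.05 and its adjusted p 0.749. In the order 129, WSB, NOD, NZO, B6, PWK, Cast and AJ, the step between Cast and AJ was the one pair of neighbours that differed (edgeR adjusted p = 0.00148). Without WSB_1, WSB also lay above NOD (0.29, edgeR adjusted p = 0.0289), and without the 5 libraries that stand apart NZO lay above B6 (0.20, 0.0109). With limma on the deposited values PWK lay above Cast (0.31, limma adjusted p = 0.046). For that pair, scaling by the cardiomyocyte list gave 0.28 (edgeR adjusted p = 0.0131), and leaving out Cast_1, Cast_5 and Cast_6 gave -0.08 (0.634). Against the remaining strains NZO and NOD missed the threshold (edgeR adjusted p = 0.0963 and 0.063), but NZO passed it without NZO_8 (log2 fold change 0.25, edgeR adjusted p = 0.0246) and NOD without WSB_1 (0.20, 0.0392). Without the 5 libraries NZO, NOD and PWK all passed, at 0.19, 0.14 and -0.16 log2 units (edgeR adjusted p = 0.00102, 0.0108 and 0.00398). The calls at the middle of the Actc1 order thus depend on which libraries are kept and how they are scaled.

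The actins thus went opposite ways in AJ, while NZO had high Acta1 with Actc1 in the middle of the strains. The summed level of both genes was 5603 ± 391 CPM (SD, n = 8) in AJ, 5779 ± 1976 CPM (SD, n = 7) in Cast, 9493 ± 739 CPM (SD, n = 8) in 129 and 9484 ± 1683 CPM (SD, n = 8) in NZO. As a share of both genes in counts per kilobase, Acta1 made up 29.2 ± 4.34% (SD, n = 8) in AJ, 18.8 ± 5.52% in NZO, 6.95 ± 1.13% in NOD, 5.48 ± 1.52% in Cast, 3.71 ± 1.06% in 129, 3.62 ± 1.56% in PWK, 2.73 ± 1.21% in WSB and 1.83 ± 0.399% in B6. The lowest AJ library was at 24.5% and the highest at 38.4%, and NZO ran from 9.62% (NZO_8) to 28.5%, so these strains overlapped each other but no other strain, the highest value elsewhere being 8.96% in NOD. The share differed among strains (two-sided permutation test over 63 libraries, p = 1e-05, as low as 100000 resamples allow, and 1e-05 after adjustment over 4 shares). A share within a library does not depend on the scaling between libraries. Transcripts of Acta1 and Actc1 are 86.3% identical over 1132 aligned bases, and no transcript elsewhere in the annotation reached 95% identity over at least 50% of the shorter one for any of the 9 genes.

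**Figure D2:**
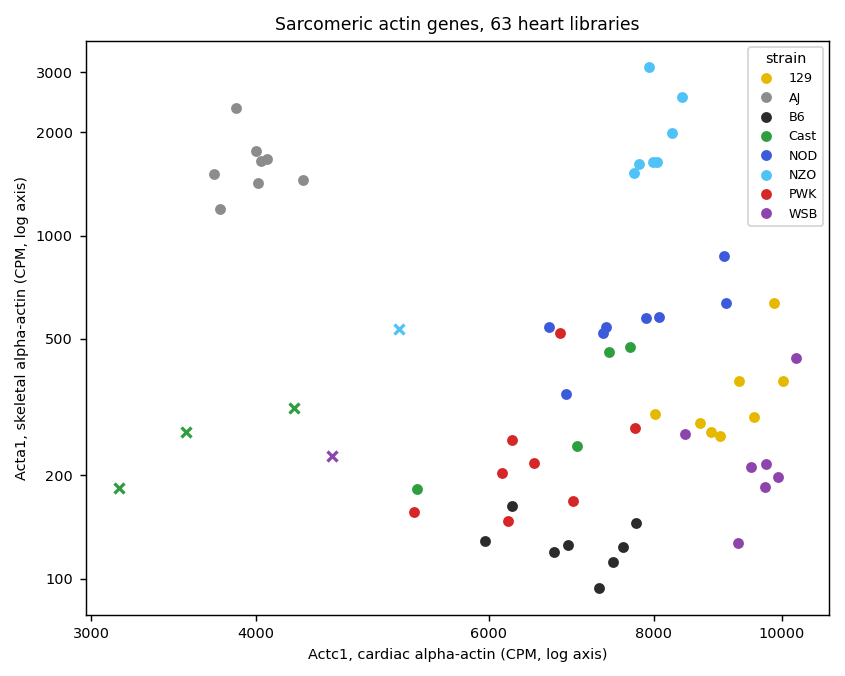
Acta1 against Actc1 in CPM (both axes log) in 63 libraries, coloured by strain, with crosses for WSB_1, NZO_8, Cast_1, Cast_5 and Cast_6. AJ sits apart at the upper left, with 1193 to 2362 CPM of Acta1 and 3719 to 4337 CPM of Actc1.

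Tnnt2 encodes cardiac troponin T, which ties the complex to tropomyosin (ENSMUSG00000026414, chromosome 1, 135836354 to 135852260, plus strand). It was lowest in NZO, from 2736 to 3234 CPM with a median of 3014, and every NZO library lay below every library of the other strains, which held in either direction for 0.505% of the genes tested in NZO. The NZO mean was 3010 ± 151 CPM (SD, n = 8), with a log2 fold change of -0.42 ± 0.05 (SE, edgeR adjusted p = 5.24e-10). The highest means were 4340 ± 495 CPM in NOD and 4330 ± 233 CPM in AJ (SD, n = 8), each 0.18 log2 units above the remaining strains (edgeR adjusted p = 0.00256 and 0.0022). Among neighbours in order of level only PWK and NZO differed (edgeR adjusted p = 0.00464), while without the 5 libraries B6 and PWK (0.0208) and 129 and WSB (0.0271) did so as well. In 129 the difference from the remaining strains passed without WSB_1 (log2 fold change 0.12, edgeR adjusted p = 0.016), without the 3 Cast libraries (0.13, 0.0321) and without all 5 (0.14, 0.00308). Cast passed the test with all its libraries (log2 fold change 0.12, edgeR adjusted p = 0.0365) but not without Cast_1, Cast_5 and Cast_6 (0.04, 0.67), and Cast_6 alone was at 5064 CPM.

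Tnni3 encodes cardiac troponin I, the subunit that holds the filament off at low calcium (ENSMUSG00000035458, chromosome 7, 4518305 to 4524229, minus strand). Its strain means lay between 2130 ± 151 CPM (SD, n = 8) in NZO and 2490 ± 771 CPM (SD, n = 8) in WSB, where WSB_1 was at 4379 CPM and the other 7 libraries at 2033 to 2401 CPM. The test over all strains was missed (edgeR adjusted p = 0.0995), and 97.3% of the genes tested had a wider span of strain means. Without WSB_1 it was passed (edgeR adjusted p = 0.00127), with PWK 0.12 and 129 0.10 log2 units above and NZO 0.12 units below the remaining strains. With all libraries no strain passed, and of 28 pairs NZO lay below PWK and WSB (log2 fold change -0.20 and -0.23, edgeR adjusted p = 0.039 and 0.027). The pair of NZO and WSB rested on WSB_1: without it the WSB mean was 2220 CPM and the difference -0.06 (edgeR adjusted p = 0.367). The pair of NZO and PWK passed without WSB_1 (-0.20, 0.000544) and without the 5 libraries (-0.18, 0.0015), and missed the threshold without NZO_8 alone (-0.18, 0.0748). Tnni3 shares 86 exonic bases on the same strand with Dnaaf3, a dynein assembly gene, so counts there could go to either.

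Tnnc1 encodes troponin C of cardiac and slow muscle, the calcium sensor (ENSMUSG00000091898, chromosome 14, 31208312 to 31211729, plus strand). In B6 it ran from 959.2 to 1082 CPM with a median of 1003, below every other library except NZO_8 at 919.6 CPM. The B6 mean was 1010 ± 42.7 CPM (SD, n = 8), with a log2 fold change of -0.45 ± 0.06 (SE, edgeR adjusted p = 1.83e-08). It was 0.23 ± 0.06 log2 units above the remaining strains in 129 and 0.17 ± 0.06 above in AJ (edgeR adjusted p = 0.00149 and 0.0192). In WSB the difference was 0.20 ± 0.06 (edgeR adjusted p = 0.00348) with WSB_1 at 2391 CPM, and 0.08 (0.163) without that library. In PWK it was -0.10 with all libraries (edgeR adjusted p = 0.173) and -0.08 without the 5 (0.0413). From 129 to NZO no neighbours in order of level differed with all libraries, 129 lay above WSB without WSB_1 (0.15, edgeR adjusted p = 0.0374), and the step from NZO to B6 did (edgeR adjusted p = 0.0027). The 3 cardiac troponin genes, whose products bind each other in 1 complex, thus had their lowest mean in NZO, NZO and B6.

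Tnni1, the slow skeletal troponin I of the fetal heart, was close to the lower limit of the genes tested and was highest in PWK and Cast. Against the remaining strains its log2 fold change was 2.27 ± 0.19 (SE) in PWK and 1.98 ± 0.21 in Cast, and -2.32 ± 0.39 in NZO and -1.40 ± 0.37 in 129 (edgeR adjusted p = 8.3e-18, 1.08e-12, 1.22e-06 and 0.00187). Its summed counts were 324 over 8 PWK libraries and 203 over 7 Cast libraries, against 17 over 8 NZO libraries, 3 of which were at 0. Its share of troponin I per kilobase was 0.0347 ± 0.0114% (SD, n = 8) in PWK, 0.0326 ± 0.0137% (SD, n = 7) in Cast and 0.00221 ± 0.00213% (SD, n = 8) in NZO, and differed among strains (two-sided permutation test, adjusted p = 1e-05). Tnnt1, slow skeletal troponin T, was highest in the same 2 strains, at 15.3 ± 2.72 CPM (SD, n = 8) in PWK and 14.7 ± 6.24 CPM (SD, n = 7) in Cast, and lowest in B6 at 5.01 ± 0.553 CPM (SD, n = 8). Cast_1, whose 10 skeletal muscle markers other than Casq1 summed to 103 CPM, had the highest Tnni1 share of Cast, 0.0556% against a median of 0.0305%. The lowest Cast library was at 0.0194%. The part of Cast_1 in the Cast means of Tnni1 and Tnnt1 was not tested.

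Tpm1 encodes alpha-tropomyosin, the main form in the heart (ENSMUSG00000032366, chromosome 9, 67022590 to 67049406, minus strand). It was highest in 129, from 2588 to 2816 CPM with a median of 2653, and each 129 library lay above each library of the other strains, which in either direction held for 0.298% of the genes tested in 129. The 129 mean was 2680 ± 87.6 CPM (SD, n = 8), with a log2 fold change of 0.43 ± 0.05 (SE, edgeR adjusted p = 2.71e-11). It lay 0.20 log2 units above B6, the next strain (edgeR adjusted p = 0.023). Scaled by the cardiomyocyte list in place of TMM, that step was 0.07 (0.551). The lowest means were 1690 ± 195 CPM in NZO, 1750 ± 213 CPM in NOD (SD, n = 8) and 1750 ± 146 CPM in Cast (SD, n = 7), with log2 fold changes of -0.33, -0.27 and -0.27. These 3 did not differ from each other as neighbours (edgeR adjusted p = 0.95 and 0.655), and AJ lay above Cast (0.003). The place of NZO as the lowest rested on NZO_8 at 1251 CPM. Without that library NZO was at 1750 ± 85.5 CPM (SD, n = 7), and NOD had the lowest mean log2 CPM. B6, WSB, PWK and AJ filled the middle from 2340 to 2060 CPM, and no neighbours among them differed. Tpm1 makes striated, smooth muscle and non-muscle proteins by splicing, and gene-level counts do not separate them.

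Tpm2 encodes beta-tropomyosin, scarce in the adult mouse heart (ENSMUSG00000028464, chromosome 4, 43514711 to 43523765, minus strand). It was highest in NZO, from 39.68 to 50.44 CPM with a median of 45.16, and lowest in 129, from 16.64 to 23.08 CPM with a median of 18.47. The log2 fold change was 0.81 ± 0.10 (SE) in NZO and -0.61 ± 0.11 in 129 (edgeR adjusted p = 6.6e-10 and 1.5e-05), with PWK also lower (-0.49 ± 0.11, 0.000167) and NOD higher (0.35 ± 0.10, 0.00568). NZO overlapped NOD, which reached 41.54 CPM, and WSB_1 at 56.16 CPM exceeded every NZO library. WSB did not pass the test with WSB_1 (log2 fold change -0.12, edgeR adjusted p = 0.402) and passed it without (-0.38, 0.000224). In order of level NZO differed from NOD and WSB from PWK (edgeR adjusted p = 0.0246 and 0.0489), and the other neighbours did not differ. The step between WSB and PWK rested on WSB_1: without it WSB was at 21.5 ± 3.55 CPM (SD, n = 7), 0.06 log2 units above PWK (edgeR adjusted p = 0.691) and 0.30 below B6 (0.0247). In AJ, Tpm2 was 0.19 log2 units above the remaining strains without the 5 libraries (edgeR adjusted p = 0.0349) and did not pass with them. Tpm2 is also a gene of smooth muscle and atria: the summed smooth muscle markers were lowest in NZO (256.7 to 314.6 CPM, against 413.9 to 598.1 CPM in 129), and the summed atrial markers overlapped (1211 to 2562 CPM in NZO, 1202 to 1923 CPM in 129). Their part in the Tpm2 difference was not tested.

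The tropomyosin genes stood at opposite ends in the same strains: 129 had the highest Tpm1 and the lowest Tpm2, and NZO the reverse with all libraries. Without NZO_8, NZO still had the highest Tpm2 but shared the low end of Tpm1 with NOD and Cast, all at 1750 CPM. Per kilobase, Tpm2 was 5.13 ± 0.395% (SD, n = 8) of both in NZO, 3.82 ± 0.686% in NOD and 1.41 ± 0.176% in 129 (two-sided permutation test over all strains, adjusted p = 1e-05). Values in NZO ran from 4.7% to 5.99% and in 129 from 1.27% to 1.7%. The size of these percentages depends on the exon lengths used. They were 4780 bases for Tpm1, summed over 16 coding transcripts, and 2382 bases for Tpm2, over 4. A long exon sum lowers the level per kilobase, so the Tpm2 share may be overstated. WSB_1, at 4.36%, and Cast_1, at 4.77%, lay far above their strains' medians of 1.95% and 3.09%.

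Mybpc3 encodes cardiac myosin-binding protein C, a gene often mutated in inherited hypertrophic cardiomyopathy (ENSMUSG00000002100, chromosome 2, 91118144 to 91136516, plus strand). In Cast it ran from 1298 to 1849 CPM with a median of 1607. Of all libraries of other strains, WSB_1 at 1451 CPM was the one that entered that range, the next lowest being a B6 library at 2629 CPM. The Cast mean was 1580 ± 207 CPM (SD, n = 7), with a log2 fold change of -1.03 ± 0.07 (SE, edgeR adjusted p = 1.26e-19). Cast_5 and Cast_6 were the lowest at 1298 and 1321 CPM, and the 4 Cast libraries that did not stand apart lay at 1607 to 1849 CPM. The other strains fell into 2 sets: NOD, 129, AJ and NZO at 3680, 3630, 3560 and 3360 CPM, each above the mean of the others, and B6, PWK and WSB at 2860, 2800 and 2780 CPM. Within the lower set, B6 and PWK passed against the remaining strains only with libraries left out: PWK without WSB_1 (log2 fold change -0.09, edgeR adjusted p = 0.0444) and without all 5 (-0.12, 0.00234), and B6 without all 5 (-0.08, 0.0402). No neighbours within a set differed, while NZO differed from B6 and WSB from Cast (edgeR adjusted p = 0.0263 and 1.93e-12). Scaled by the cardiomyocyte list, NOD lay above 129 within the upper set (0.17, edgeR adjusted p = 0.00577). Cardiomyocyte marker sums in Cast ran from 70300 to 78420 CPM, inside the range of the other strains. Of these 10 markers, 2 passed as higher and 4 as lower in Cast, against 30.9% and 29.3% of all genes tested. The part of cardiomyocyte content in the Mybpc3 level was not tested.

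Mybpc2 encodes the fast skeletal form of the protein (ENSMUSG00000038670, chromosome 7, 44501699 to 44524656, minus strand). In WSB it ran from 5.66 (WSB_1) to 12.59 CPM with a median of 9.769, and all WSB libraries lay below all others, as held in either direction for 0.737% of the genes tested in WSB. The WSB mean was 9.52 ± 2.00 CPM (SD, n = 8), with a log2 fold change of -1.52 ± 0.10 (SE, edgeR adjusted p = 1.19e-19). The highest means were 40.2 ± 7.31 CPM in NOD and 35.4 ± 6.3 CPM in PWK (SD, n = 8), with log2 fold changes of 0.86 and 0.66, and NZO and 129 followed at 32.3 and 31.6 CPM. No neighbours among these 4 differed, 129 lay above B6 (edgeR adjusted p = 0.000174), and Cast lay above WSB (2.4e-08). The gene overlaps 192 exonic bases of the antisense transcript Gm44646, and whether counting used strand is not stated in the labels. As a share of both binding protein genes per kilobase, Mybpc2 was 1.44 ± 0.284% (SD, n = 8) in PWK, 1.28 ± 0.188% (SD, n = 7) in Cast and 0.397 ± 0.0568% (SD, n = 8) in WSB (two-sided permutation test, adjusted p = 1e-05). Mybpc2 itself was low in Cast, at 17.6 ± 1.96 CPM (SD, n = 7), with a log2 fold change of -0.50 ± 0.10 (SE, edgeR adjusted p = 1.79e-05). Cast was also the strain lowest in Mybpc3, the other gene of the share.

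**Figure D3:**
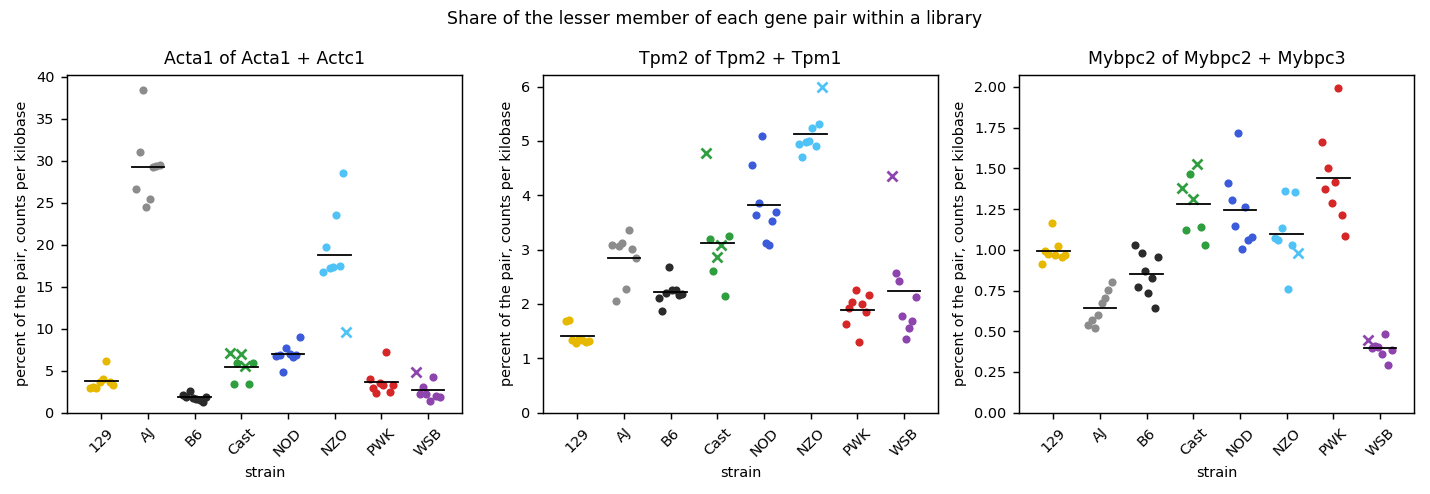
Share of the lesser gene in each pair, in percent of the pair's counts per kilobase of exon, by strain. Points are libraries, crosses are WSB_1, NZO_8, Cast_1, Cast_5 and Cast_6, and bars are strain means; the Acta1 share in AJ (24.5% to 38.4%) and the Mybpc2 share in WSB (0.294% to 0.484%) stand out.

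Viewed by strain, each had its own set of differing genes. In 129, Actc1, Tnnc1, Tpm1, Mybpc3 and Mybpc2 were higher than in the remaining strains and Tpm2 was lower, while 16.8% of all genes tested were higher there, 14.1% lower and 30.9% either. In AJ 4 of the 9 genes were higher and 2 lower, against 21.1%, 18.1% and 39.2% of all genes tested in the same order. In B6 1 was higher and 2 lower (17.5%, 14.3% and 31.8%), in NOD 5 and 1 (19.8%, 13.9% and 33.6%), and in NZO 4 and 2 (22.5%, 18.6% and 41.0%). In PWK 1 was higher and 3 lower (27.4%, 26.8% and 54.2%), and in WSB 3 and 2 (25.6%, 19.8% and 45.4%). In Cast 1 was higher and 5 lower (30.9%, 29.3% and 60.2%), and without Cast_1, Cast_5 and Cast_6 the 3 that passed were Tpm1, Mybpc3 and Mybpc2, all lower. The median log2 fold change of the 9 genes was 0.23 in 129, 0.21 in NOD and 0.19 in NZO, and -0.27 in Cast, while the median over all genes tested lay between -0.00559 and 0.0166 in the 8 strains. Over all 28 pairs of strains the 9 genes gave 146 calls of 252, against 41.2% for all genes tested (21.3% to 57.0% in single pairs): Acta1 and Mybpc2 differed in 21 pairs each, Tpm1 in 20, Tpm2 and Mybpc3 in 19, Actc1 in 16, Tnnt2 and Tnnc1 in 14 and Tnni3 in 2. Scaled by the cardiomyocyte list in place of TMM, the median gene in 129 moved by -0.14 log2 units and the share of calls that were higher went from 54.5% to 21.7%, and in NOD from 58.8% to 71.9%. The Tnnc1 difference in 129 was then 0.08 (edgeR adjusted p = 0.522), and Actc1, Tpm1 and Tpm2 in 129 kept their calls.

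**Figure D4:**
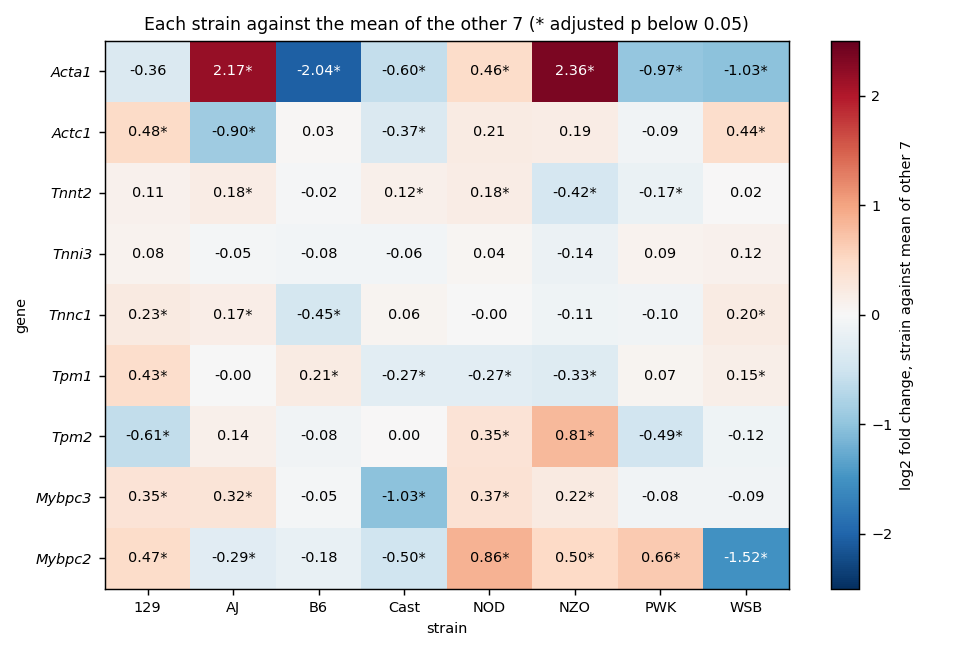
Log2 fold change of each gene (vertical) in each strain (horizontal) against the average of the remaining 7, by colour and number, with an asterisk for an edgeR adjusted p below 0.05. The extremes are 2.36 for Acta1 in NZO and -2.04 for Acta1 in B6, and the Tnni3 line has no asterisk.

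Within strains, the troponins and Tpm1 varied together from library to library. With strain means removed from log2 CPM, 13 of 36 pairs of the 9 genes passed (permutation within strains, 100000 resamples, 63 libraries, adjusted over 36 pairs), 12 of them positive. Without NZO_8, 8 of these 13 passed. The weakest of the 13 had an absolute r of 0.373. Among all pairs of the 16425 genes tested 12.2% reached that size in either sign and 6.38% with a positive sign, against 18 and 14 of the 36 pairs, and without the 5 libraries that stand apart 3.77% and 2.09% did, against 16 and 16 of 36. Tnni3 and Tnnc1 had Pearson r = 0.835 and Spearman rho = 0.678 (permutation p = 1e-05 for each, adjusted 7.2e-05 and 9e-05), and r = 0.665 without WSB_1 and NOD_8, the libraries farthest from the median. Tnnc1 and Tpm1 had r = 0.698 and rho = 0.66 (permutation p = 1e-05 for each, adjusted 7.2e-05 and 9e-05), and r = 0.724 without the farthest pair. Tnnt2 with Tnni3 had r = 0.691 and rho = 0.605 (permutation p = 1e-05 and 2e-05, adjusted 7.2e-05 and 0.00012), and r = 0.686 without the farthest pair. The points share libraries and their scaling.

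Other relations moved more with single libraries. Actc1 and Mybpc3 had r = 0.68 and rho = 0.422 (permutation p = 0.0004 and 0.005, adjusted 0.00206 and 0.0217), r = 0.478 without WSB_1 and Cast_6, and r = 0.162 without the 5 libraries that stand apart. Acta1 and Actc1, opposite in AJ as strain means, were positively related within strains: r = 0.428 and rho = 0.368 (permutation p = 0.00371 and 0.00542, adjusted 0.0134 and 0.0217), r = 0.357 without NZO_8 and PWK_6, and 0.455 without the 5 libraries. It passed the threshold without the 5 libraries and without WSB_1 (r = 0.507), and missed it without NZO_8 alone (r = 0.333). Mybpc3 with Tnni3 went from r = -0.386 to 0.553 when WSB_1, with Tnni3 at 4379 CPM and Mybpc3 at 1451 CPM, was left out.

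**Figure D5:**
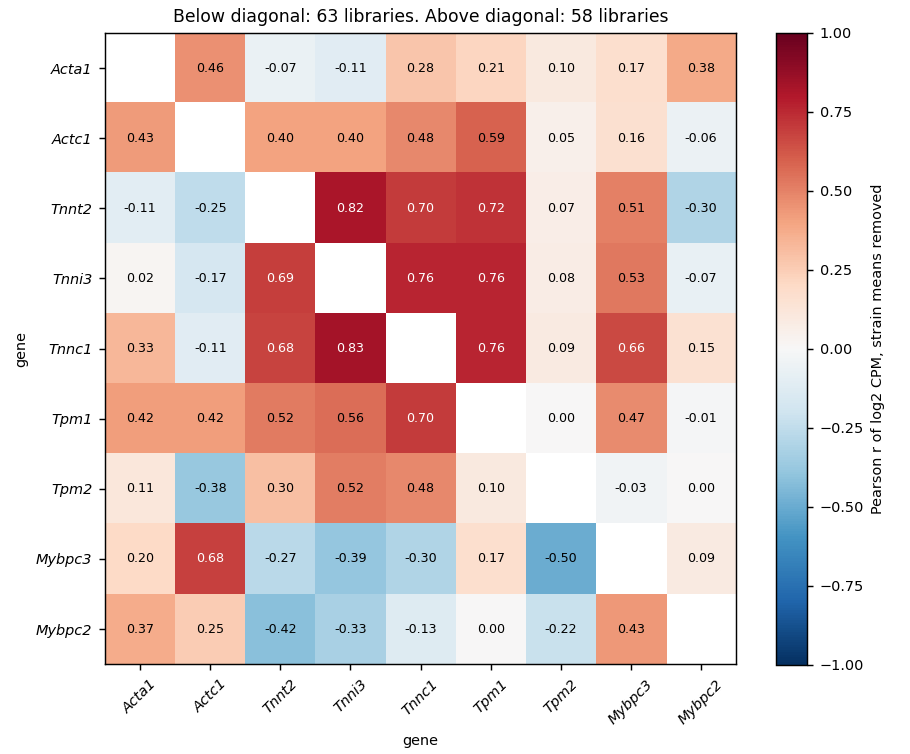
Pearson r of log2 CPM with strain means removed, for each pair of the 9 genes (both axes), over 63 libraries below the diagonal and over 58 libraries (without WSB_1, NZO_8, Cast_1, Cast_5 and Cast_6) above it. Tnnt2, Tnni3, Tnnc1 and Tpm1 form a positive block in both, and the negative values of Mybpc3 with the troponins below the diagonal turn positive above it.

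Other genes of the same filaments also differed among strains: all 9 tested of 11 other actin, tropomyosin and troponin genes, 20 of 21 genes of thin filament length and capping, and 2 of 2 tested of 3 other myosin-binding protein genes passed, near the background of 90.3%. Their median spans were 1.36, 0.69 and 3.01 log2 units, against 0.78 over all genes tested. Acta2, smooth muscle alpha-actin, had its highest mean in AJ, 387 ± 45.8 CPM (SD, n = 8), a strain high in Acta1, but its lowest in NZO, the other one, 71.3 ± 7.42 CPM (SD, n = 8). Neb, which encodes the giant ruler protein nebulin, had means of 36.2 ± 8.04 CPM in NZO and 1.38 ± 0.385 CPM in PWK (SD, n = 8). Tmod4, a tropomodulin that caps the pointed end, was at 12.2 ± 1.8 CPM in 129 and 1.65 ± 0.479 CPM in PWK (SD, n = 8). Lmod3, a leiomodin that starts actin filaments, was highest in AJ at 85.5 CPM and lowest in Cast at 25.7 ± 15.4 CPM (SD, n = 7, from 8.51 to 50.7 CPM). Nrap and Xirp2, actin-binding proteins of the intercalated disc, had their highest means in NZO, at 1310 ± 131 and 1890 ± 476 CPM (SD, n = 8). Mybphl, a binding protein relative of the atria and conduction system, was lowest in WSB, at 15.2 ± 4.48 CPM (SD, n = 8), the strain lowest in Mybpc2.

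Of 13 measured regulators of sarcomeric actin transcription, 11 differed among strains, against 90.3% of all genes tested, with a median span of 0.54 log2 units. Hopx, a homeodomain protein that binds serum response factor, was highest in WSB at 272 ± 55.4 CPM and lowest in NOD at 55.7 ± 4.78 CPM (SD, n = 8). Myocd, which encodes the co-activator myocardin, was highest in PWK at 92.0 ± 10.6 CPM (SD, n = 8), close to Cast at 91.2 ± 25.2 CPM (SD, n = 7). In NZO 1 regulator was higher and 1 lower (22.5% and 18.6% of all genes tested), and in AJ, the other strain with high Acta1, 1 was higher and 4 were lower (21.1% and 18.1%), Hopx among them (log2 fold change -0.73 ± 0.08, SE).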

How the data were processed

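Poly(A) RNA libraries from frozen, pulverised heart were analysed in 63 samples. The authors deposited estimated counts per gene, assigned to GRCm38 per the submitters' processing notes, of which 18.4% are not whole (tolerance 1e-06), and each gene is above 0 in at least 32 libraries. They also deposited variance-stabilised log2 values, and the submitters' processing notes name DESeq2. Gene positions in the deposited annotation (other) were compared with GENCODE M21. For the aligner, the counter and the strand setting nothing is stated in the labels.

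Counts were rounded and fitted in R 4.3.3 with edgeR 4.0.16 (filterByExpr, minimum count 10, 16425 genes kept, TMM, robust quasi-likelihood, 1 coefficient per strain, 55 residual degrees of freedom). Tests covered all strains, a strain minus the unweighted average of the remaining 7, and 28 pairs, with Benjamini-Hochberg adjustment over all genes tested and a threshold of 0.05. CPM are TMM-scaled, and relations used log2 CPM with a prior count of 2. Shares and relations were tested by permutation in Python 3.11.15 with numpy 2.4.6. Alternatives used DESeq2 1.42.0, limma 3.58.1, other scalings, no filter, a replicate block and left-out libraries. The procedure was tested on simulated data. The 9 genes and all lists were chosen with earlier results of these data known. Of other lists, up to 3 genes per direction with the widest span of strain means were eligible to be named (mean log2 CPM of at least 1). Loss of reads to variants in strains other than B6 was not tested.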

Additional observations from a re-analysis of the deposited data

Results flagged for a closer look

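Within a strain, 1 library stood apart from the others by Dixon's criterion in 19 of 96 combinations of strain and gene or share, where chance gives about 1 in 20. Of these 19, 6 were WSB_1 and 5 were NZO_8.

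In WSB_1, Actc1 was at 4568 CPM (other WSB libraries 8450 to 10240), Mybpc3 at 1451 CPM (2704 to 3190), Tnnc1 at 2391 CPM (1242 to 1470), Tnni3 at 4379 CPM (2033 to 2401), Tpm2 at 56.16 CPM (16.5 to 26.39) and the Tpm2 share at 4.36% (1.36 to 2.57%). Actc1 and Mybpc3 were thus low and Tnnc1, Tnni3 and Tpm2 high in 1 library, whose cardiomyocyte sum was 35920 CPM, while its Acta1 level of 227.1 CPM lay inside the range of the other WSB libraries (126.6 to 440.8 CPM).

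In NZO_8, Acta1 was at 535.8 CPM (other NZO libraries 1521 to 3108), Actc1 at 5128 CPM (7730 to 8402), Mybpc3 at 2835 CPM (3252 to 3551), Tnnc1 at 919.6 CPM (1198 to 1457) and Tpm1 at 1251 CPM (1682 to 1907), all lower than in the rest of the strain. Its macrophage sum was 577.2 CPM, and the part of this in those values was not tested.

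The other 8 were single values in 7 libraries. In 129_7 Acta1 was at 635.5 CPM (261.2 to 376.4 elsewhere in 129) and 6.16% of sarcomeric actin, in PWK_6 the Acta1 share was 7.25% (2.36 to 3.97%), and in AJ_3 it was 38.4% (24.5 to 31.0%). Tnni3 was at 2780 CPM in 129_3, Tnnt2 at 4373 CPM in B6_7, the Mybpc2 share was 1.17% in 129_4 and the Tpm2 share 4.77% in Cast_1.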

How the results depend on the processing

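Of 72 values of a gene in a strain 42 passed the test, and none of those 42 changed direction under any of 11 other settings. These were other scalings, no filter, DESeq2, limma on the deposited values, a replicate block and left-out libraries, the last chosen after seeing the data. Of the values that had not passed, 11 changed direction in at least 1 setting. Without Cast_1, Cast_5 and Cast_6, and without those and WSB_1 and NZO_8, 3 genes passed in Cast in place of 6. Without the 5 libraries 8 passed in PWK in place of 4. Scaling by the cardiomyocyte list ended the calls of Tnnc1 in 129 and AJ (edgeR adjusted p = 0.522 and 0.173) and of Tnnt2 in AJ, Cast and PWK (0.0574, 0.185 and 0.0932), and added those of Acta1 in 129 (0.0281), Actc1 in NOD and NZO (0.00393 and 0.0121) and Tnni3 in WSB (0.019). The Tnni3 call in WSB includes WSB_1, with Tnni3 at 4379 CPM (2033 to 2401 CPM in the rest) and a cardiomyocyte sum of 35920 CPM. This scaling was not run without WSB_1. Without the 5 libraries 4 calls ended and 12 were added. Calls over pairs of strains ran from 135 to 169 of 252. Of 65 pairs named for a gene, 7 changed their call without WSB_1, and Tnni3 in 129 minus WSB turned from -0.0324 to 0.132 (0.133 without the 5 libraries, -0.0322 without NZO replicate 8). Scaling by the cardiomyocyte list ended 4 of them, among them Tpm1 in 129 and B6 (0.07, edgeR adjusted p = 0.551) and Tpm2 in NZO and NOD (0.39, 0.15), and the step of Tpm2 from WSB to PWK was also lost with limma, with no filter and with the replicate block (adjusted p = 0.151, 0.062 and 0.0842).

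Without WSB_1, 18 relations passed, and without NZO replicate 8, 8 passed in place of 13. Without WSB_1, r turned positive for Actc1 with Tnnc1 (0.368) and Tnni3 (0.435) and for Mybpc3 with Tnnc1 (0.474) and Tnni3 (0.553), while without NZO replicate 8 they were -0.278, -0.223, -0.428 and -0.425. Without the 5 libraries these were 0.482, 0.399, 0.657 and 0.527, and Tnnt2 had 0.402 with Actc1 and 0.506 with Mybpc3.

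The labels do not say that a replicate number marks a shared animal, batch or day. Same-numbered libraries of different strains were somewhat more alike (median r 0.0968, 99 of 199 pairs over 0.1) than those with other numbers (median r -0.0161, 423 of 1537 over 0.1). Of 63 libraries, 10 were most like another of their own number. These values cannot decide whether a number marks a shared batch. The main fit took no pairing, and a replicate block was run as an alternative. With the replicate block 8 of the 9 genes differed among strains, 145 pair calls were made, the shares kept a permutation p of 1e-05, and Tnnt2 in Cast had an edgeR adjusted p of 0.0517.

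Depth limits Tnni1, with 17 counts over NZO.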

Other observations

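Genes of the fetal and stress programme that is often measured with Acta1 followed it in part, but not as 1 group, across strains. All 7 tested of 8 differed among strains, against 90.3% of all genes tested. Nppb, brain natriuretic peptide, was highest in AJ at 289 ± 58.6 CPM and was 94.9 ± 35.2 CPM in NZO (SD, n = 8), close to 129 at 94.8 ± 19.5 CPM. Ankrd1, a titin-associated stress protein, was at 1820 ± 254 CPM in AJ, 1670 ± 298 CPM in NZO and 1650 ± 322 CPM in PWK (SD, n = 8), the last a strain with Acta1 at 243 CPM. B6 had its lowest mean, 533 ± 47.5 CPM (SD, n = 8), and also the lowest of Acta1. Myh7, the slow myosin heavy chain, was highest in Cast at 2670 ± 2540 CPM (SD, n = 7), from 898 to 8080 CPM, while AJ and NZO had 152 ± 21.3 and 250 ± 131 CPM (SD, n = 8). Hspb7 was highest in NZO at 2400 CPM and lowest in B6 at 1240 CPM, the same ends as Acta1. Csrp3 was highest in NZO at 800 CPM and lowest in WSB at 474 CPM. In this list 3 of 7 were higher and 0 lower in NZO, 3 and 1 in AJ, and 0 and 4 in B6. PWK, with Acta1 at 243 CPM, had 3 and 2. All genes tested gave 22.5% and 18.6% in NZO, 21.1% and 18.1% in AJ, 17.5% and 14.3% in B6, and 27.4% and 26.8% in PWK.

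Of 14 kinases and phosphatases that act on troponin I and myosin-binding protein C, 11 differed among strains, against 90.3% of all genes tested, with a median span of 0.57 log2 units against 0.78 over all genes tested. Prkce, protein kinase C epsilon, was at 52.2 ± 3.54 CPM in B6 and 23.3 ± 1.46 CPM in AJ (SD, n = 8).

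The genes whose log2 CPM followed each of the 9 most closely within strains were, over 63 libraries, Hspb6 for Acta1 (r = 0.604), Uqcc1 for Actc1 (0.926), Slc25a4 for Tnnt2 (0.773), Atp5h for Tnni3 (0.95), Prdx5 for Tnnc1 (0.844), Uqcrc1 for Tpm1 (0.849), Tppp3 for Tpm2 (0.743), Afg3l2 for Mybpc3 (0.918) and Lamb1 for Mybpc2 (0.653). Without the 5 libraries that stand apart the same pairs had r of 0.563, 0.738, 0.713, 0.863, 0.71, 0.836, 0.611, 0.651 and 0.518. Over those 58 libraries each gene had another closest partner, among them Chchd4 for Acta1 (r = 0.595), Itgb1bp2 for Actc1 (0.786), Mdh1 for Tnni3 (0.895) and Myl2 for Tnnc1 (0.846). Mdh1 and Tnni3 had r = -0.269 over all 63 libraries.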
